A study of Mus musculus with 4 samples.

Results

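Genomic sites of the transcription factor NKX2.2 that lie well inside short genes were described from a ChIP-seq experiment in alphaTC6, a wild-type mouse line of glucagon-producing pancreatic alpha cells. The 1277 sites are peak summits on chromosomes 1 to 19 and X that lie over 1 kb from the boundary of any annotated gene and inside a protein-coding gene, where the longest such gene spans under 100 kb. They are 17.3% of the 7380 summits placed on these chromosomes (95% Wilson interval 16.5% to 18.2%; intervals here cover counting error only) and of 7384 in the whole list. ChIP DNA was enriched with an antibody to NKX2.2 and compared with input DNA, with 2 samples in each group, all from the same line. AlphaTC6 cells descend from a pancreatic tumour of mice in which the glucagon gene promoter drove a viral oncogene, so they are a proliferating model of the alpha cell. The only table analysed is a list of summits deposited for the whole series, with 1 score per peak and no value per library. Replicate error and depth are therefore unknown, no test over samples could be made, and differences below are given with counting intervals alone. No expression was measured, so the alpha cell label could not be checked against marker genes.

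NKX2.2 is a homeodomain protein of the NK2 class that islet precursors need to form endocrine cells and that mature islet cells keep to hold their identity. It binds DNA sites built on the core AAGTG and can repress genes through corepressors of the Groucho family as well as activate them. Sequence inside a gene can hold enhancers of that gene or of its neighbours, and it can also hold additional transcription starts, from which shorter transcripts of the same gene begin.

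The genes that hold these summits span under 100 kb by the choice of sites. Their span had a median of 42.4 kb over the summits, and the middle 50% of summits lay in genes of 23.3 to 68.5 kb. In all, 1050 genes held a summit, out of 16162 coding genes under 100 kb that have sequence over 1 kb from every gene boundary, a share of 6.5%. A further coding gene also covered 16 of the summits, and 64 lay in a noncoding gene as well. The members nearest the length limit lay in Ube4b (99.7 kb, a ubiquitin ligase gene) and Cdc73 (99.6 kb, a subunit of the PAF complex of transcription elongation), with scores of 7.79 and 11.6. Just over the limit were Smarcal1 (100.1 kb, score 4.28) and Specc1l (100.4 kb, score 17.9).

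Some of these summits fall on transcription starts that lie within the annotated gene, because another transcript of the same gene begins further upstream. RefSeq promoter windows (GRCm38.p6) were used to read the sequence there. Each runs from 250 bases before to 50 bases after a start and is 300 bases long, and 91 windows that do not overlap each other held a summit. The 4 with the highest scores are shown first, because they carry the strongest NKX2.2 signal for which sequence could be read. Each is written 5′ to 3′ on the gene's strand, and capitals mark the NKX2.2 core AAGTG on either strand (read as CACTT on the other).
Ccdc12, chr9:110656253-110656552, + strand: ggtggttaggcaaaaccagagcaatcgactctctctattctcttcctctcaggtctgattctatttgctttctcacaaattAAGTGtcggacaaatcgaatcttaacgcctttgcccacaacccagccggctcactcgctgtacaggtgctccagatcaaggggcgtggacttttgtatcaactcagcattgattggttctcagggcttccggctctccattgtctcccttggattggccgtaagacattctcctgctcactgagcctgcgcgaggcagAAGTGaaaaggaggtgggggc
Taok2, chr7:126884918-126885217, - strand: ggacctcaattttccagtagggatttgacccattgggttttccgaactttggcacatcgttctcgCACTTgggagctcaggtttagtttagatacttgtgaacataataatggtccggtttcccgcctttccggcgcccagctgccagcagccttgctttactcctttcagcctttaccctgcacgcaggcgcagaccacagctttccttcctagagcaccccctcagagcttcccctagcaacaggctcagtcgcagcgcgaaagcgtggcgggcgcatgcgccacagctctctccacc
Sgo2a, chr1:57995724-57996023, + strand: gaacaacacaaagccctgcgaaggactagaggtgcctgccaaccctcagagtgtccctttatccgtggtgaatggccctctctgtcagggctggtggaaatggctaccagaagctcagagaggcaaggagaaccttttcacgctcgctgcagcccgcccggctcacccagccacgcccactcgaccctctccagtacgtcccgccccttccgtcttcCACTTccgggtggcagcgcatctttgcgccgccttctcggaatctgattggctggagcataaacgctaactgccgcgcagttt
Rfx1, chr8:84066586-84066885, + strand: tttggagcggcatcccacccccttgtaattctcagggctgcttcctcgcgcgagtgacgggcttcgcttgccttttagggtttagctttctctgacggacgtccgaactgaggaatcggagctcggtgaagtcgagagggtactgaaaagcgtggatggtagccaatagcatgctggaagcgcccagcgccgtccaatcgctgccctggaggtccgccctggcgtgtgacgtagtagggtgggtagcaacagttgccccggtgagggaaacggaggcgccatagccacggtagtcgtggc
The summit lay 33 bp upstream of the start of Ccdc12 (score 185.5) and 21 bp upstream of that of Taok2, a stress-activated kinase gene (score 183.9). It lay 55 bp upstream of the start of Sgo2a, whose product protects chromosome cohesion (score 117.4), and 98 bp upstream of that of Rfx1, a transcription factor gene (score 98.2). The core nearest to the summit was centred 24 bp away in the Sgo2a window, 64 bp away in the Ccdc12 window and 162 bp away in the Taok2 window. The Rfx1 window held no core.

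The NKX2.2 core was about as frequent in the windows with a summit as in others. It was present in 39 of 91, or 42.9% (95% Wilson interval 33.2% to 53.1%), against 46.6% of all 28909 windows. Of 2238 windows at starts in the same kind of position that held no summit, 45.6% had it. The longer site TNAAGTG was found in 8 of the 91 windows, 8.79%, against 11.8% of all windows, and TNAAGTGG in 3, 3.30%, against 3.22%. Among 763 internal windows without a summit and with at least 13 CpG, AAGTG was in 37.2%, TNAAGTG in 8.65% and TNAAGTGG in 2.62%. Of the 57 core sites in these windows, 18 were centred within 50 bp of the summit, 31.6%, and 31.3% of the window bases lay that close. Of the 8 longer sites 5 lay within 50 bp, as did all 3 of the longest, and these counts are small.

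Other short motifs were searched on both strands in the same windows. The RFX-like motif GTTGCNNNG, a fragment of the site of the RFX factors that act in islets, was in 23 of 91 windows, 25.3% (interval 17.5% to 35.1%), against 13.6% of all windows and 12.0% of the internal windows without a summit. Of its 26 sites, 17 were centred within 50 bp of the summit, 65.4%. Of the 5 highest-scoring windows with such a site within 50 bp of the summit, the Taok2 window is shown above, 1 is not reported here, and the other 3 follow with this motif in capitals.
Celf3, chr3:94484077-94484376, + strand: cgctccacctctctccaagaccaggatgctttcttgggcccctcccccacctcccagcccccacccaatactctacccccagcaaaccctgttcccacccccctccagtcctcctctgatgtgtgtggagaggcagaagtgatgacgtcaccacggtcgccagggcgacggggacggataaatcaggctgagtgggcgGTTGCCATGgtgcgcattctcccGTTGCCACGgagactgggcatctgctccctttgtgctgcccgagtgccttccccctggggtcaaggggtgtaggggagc
Cep41, chr6:30693700-30693999, - strand: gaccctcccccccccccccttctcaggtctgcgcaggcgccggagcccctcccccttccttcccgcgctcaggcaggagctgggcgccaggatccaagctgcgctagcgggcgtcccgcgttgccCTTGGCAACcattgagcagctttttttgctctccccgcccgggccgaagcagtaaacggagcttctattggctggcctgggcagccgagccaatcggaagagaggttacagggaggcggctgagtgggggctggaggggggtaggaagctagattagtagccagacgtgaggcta
Btbd8, chr5:107497524-107497823, + strand: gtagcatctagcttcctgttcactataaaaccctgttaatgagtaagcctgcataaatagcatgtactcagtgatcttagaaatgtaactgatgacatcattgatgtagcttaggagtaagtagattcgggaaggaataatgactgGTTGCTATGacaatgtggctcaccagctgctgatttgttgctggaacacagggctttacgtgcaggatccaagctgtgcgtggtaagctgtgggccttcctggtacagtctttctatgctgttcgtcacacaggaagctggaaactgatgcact
The nearest site was centred 19 bp from the summit at Celf3, an RNA-binding protein gene of neurons and endocrine cells, and the window held 2 sites. It was 49 bp away at Cep41, a gene of cilia, and 8 bp away at Btbd8. In the Taok2 window the site was centred 10 bp from the summit.

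The ETS motif CCGGAAG was in 21 of the 91 windows, 23.1% (interval 15.6% to 32.7%), against 8% of all windows. The cyclic AMP response element TGACGTCA was in 7, 7.69% (interval 3.78% to 15.04%), against 1.67%, and the MAF motif TGCTGAC was in 11, 12.1% (interval 6.89% to 20.4%), against 4.72%. Sites centred within 50 bp of the summit were 12 of 26 for ETS, 46.2%, 4 of 7 for the cyclic AMP element, 57.1%, and 4 of 12 for MAF, 33.3%. For the motifs described below, that share ran from 0% to 27.2%, where 31.3% of window bases lay that close. The windows with a summit were richer in CpG, with a median of 20 CpG per window against 7 in the internal windows without a summit. Among the 763 internal windows without a summit that had at least 13 CpG, the shares were 14.02% for the RFX-like motif, 15.2% for ETS, 1.70% for the cyclic AMP element and 3.93% for MAF. In 1099 windows that held a summit near a gene boundary, the shares were 22.4%, 24.8%, 4.46% and 2.82% in the same order. Base composition moved with these counts, and its part in them was not tested beyond the CpG minimum.

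KLF and SP sites, CCNCNCCC, were in 62 of 91 windows, 68.1% (interval 58.0% to 76.8%), above the 48.5% of all windows, while the interval includes the 75.5% of internal windows with at least 13 CpG and no summit. The shorter KLF motif CACCC was in 69.2% against 57.1% of all windows and 69.2% of those CpG-rich windows. The E-box CANCTG was in 44.0% against 52.1% and 39.7%, and the FOXA motif TGTTTNC in 16.5% against 21% and 12.2%. AP-1 (TGANTCA) was in 9 windows, 9.89% (interval 5.29% to 17.7%). All windows had 8.17% and the internal windows without a summit 7.82%, both within that interval. The CpG-rich windows had 3.67% and boundary windows with a summit 3.82%, both below it. The CpG minimum, the lower quartile of the 91 windows, was applied only to windows without a summit, whose median was then 23 CpG. The homeodomain motif TAATTA was in 2 windows, 2.198%, against 5.51% of all windows and 2.097% of the CpG-rich ones. A match only says that these letters occur in the window.

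An annotated start lay within 250 bp of 118 of 1248 summits, or 9.46% (interval 7.95% to 11.2%). The start table holds no entry for chromosome 18, so its 29 summits are left out here, and it also lacks other host genes. Among the 1020 summits whose host gene has an entry, 117 lay that close, 11.5% (interval 9.66% to 13.6%). For all placed summits the share is 22.2%, most of it at gene boundaries, which the choice of sites left out here. All 118 starts belonged to a coding gene that holds the summit. The summits sat close to the start, with a median of 19 bp upstream and the middle 50% between 75 bp upstream and 43.5 bp downstream; 66 were upstream and 52 downstream. Within 50 bp lay 49 of them. Read from the starts, 128 of 2537 coding gene starts inside such genes had a summit within 250 bp, 5.05% (interval 4.26% to 5.97%). Of 15338 starts at the 5′ boundary of coding genes under 100 kb, 1371 had a summit that close, 8.94% (interval 8.50% to 9.40%), and the 2 intervals did not overlap. The share over all annotated coding gene starts was 8.23%.

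**Figure D1:**
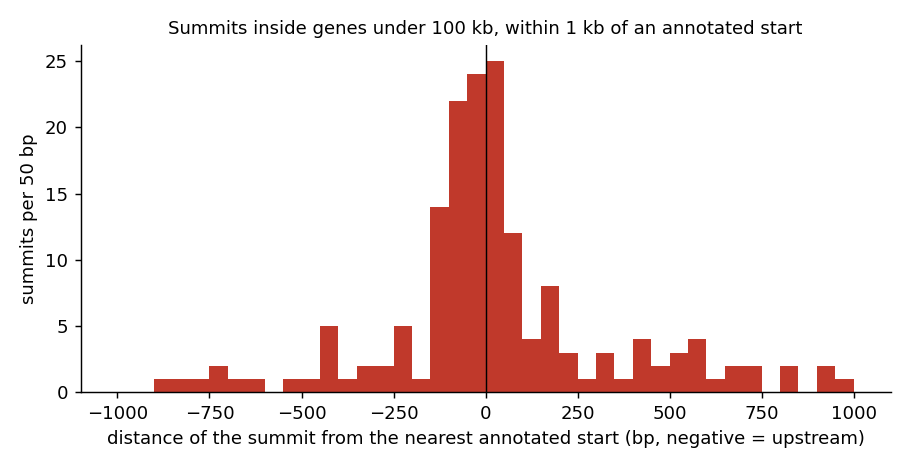
Distance in bp from each summit inside a gene under 100 kb to the nearest annotated transcription start, for the 165 summits within 1 kb of a start; bars count summits per 50 bp and negative values are upstream. The bars are highest next to the start, where 118 summits lie within 250 bp.

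Summits at these internal starts had a lower median score than the rest, with ranges that overlapped widely. The authors' score is taken here as the −log10 of the q-value of the peak against input, so that a larger value marks a stronger call. The median was 11.4 for the 118 summits within 250 bp of a start and 14.2 for the 1130 further away. Scores of 100 or more were found for 3 of the 118, 2.54% (interval 0.868% to 7.21%), and by 75 of the 1130, 6.64% (interval 5.33% to 8.24%). These intervals overlap, so the difference in strong summits was not resolved. With host genes in the start table alone, the medians were 11.6 for 117 summits and 14.1 for 903.

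Internal starts in 4 genes of the gene lists described below held a summit in the promoter window. They are shown because each gene has a known role in islet cells, metabolism or repression, again with AAGTG or CACTT in capitals.
Ldha, chr7:46845554-46845853, + strand: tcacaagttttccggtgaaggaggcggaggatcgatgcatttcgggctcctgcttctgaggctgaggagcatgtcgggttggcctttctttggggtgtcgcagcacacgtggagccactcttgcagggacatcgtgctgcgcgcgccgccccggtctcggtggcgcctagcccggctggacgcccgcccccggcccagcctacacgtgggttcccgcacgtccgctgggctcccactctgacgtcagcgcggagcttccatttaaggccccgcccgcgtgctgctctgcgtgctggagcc
Tle6, chr10:81597318-81597617, - strand: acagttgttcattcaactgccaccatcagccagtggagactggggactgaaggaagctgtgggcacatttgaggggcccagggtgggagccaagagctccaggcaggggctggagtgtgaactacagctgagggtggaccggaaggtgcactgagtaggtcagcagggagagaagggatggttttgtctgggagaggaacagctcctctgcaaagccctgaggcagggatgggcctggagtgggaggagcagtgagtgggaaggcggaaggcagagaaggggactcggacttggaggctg
Dnmt1, chr9:20952930-20953229, - strand: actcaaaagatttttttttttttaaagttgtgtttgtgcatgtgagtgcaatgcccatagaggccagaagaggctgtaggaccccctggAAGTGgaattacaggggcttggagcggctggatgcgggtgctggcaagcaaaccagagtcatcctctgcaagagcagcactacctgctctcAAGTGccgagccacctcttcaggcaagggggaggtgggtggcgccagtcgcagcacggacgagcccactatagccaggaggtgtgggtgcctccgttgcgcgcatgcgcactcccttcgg
G6pc2, chr2:69219699-69219998, + strand: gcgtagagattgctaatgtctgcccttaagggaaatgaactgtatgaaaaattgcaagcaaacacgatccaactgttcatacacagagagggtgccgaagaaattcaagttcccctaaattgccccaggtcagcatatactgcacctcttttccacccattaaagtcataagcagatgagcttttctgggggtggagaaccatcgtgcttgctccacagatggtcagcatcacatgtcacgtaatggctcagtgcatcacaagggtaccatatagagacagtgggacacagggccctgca
G6pc2, which encodes the islet glucose-6-phosphatase of beta cells, had its summit 8 bp upstream of the start, with a score of 5.78. At Ldha, the lactate dehydrogenase gene, it lay 99 bp upstream (score 12.8), and at Tle6, a gene of the Groucho family, 42 bp upstream (score 10.7). The summit at Dnmt1, the maintenance DNA methyltransferase gene, lay 23 bp downstream of the start with a score of 8.86. This summit lies 6.93 kb inside the gene's 5′ boundary, and no summit lay within 1 kb of the gene's own ends. Only the Dnmt1 window held the core, with its nearest copy centred 91 bp from the summit.

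Summits were denser inside short genes than in other stretches away from gene boundaries. The sequence of genes under 100 kb that lies over 1 kb from every boundary adds up to 369.5 Mb and held 3.46 summits per Mb (exact Poisson interval 3.27 to 3.65). The same kind of sequence in genes of 100 kb or more held 2.50 per Mb (2.38 to 2.63), and sequence outside coding genes, between the outermost genes of each chromosome, held 1.40 per Mb (1.34 to 1.46). None of these intervals overlap. The density was higher inside short than inside long genes on 18 of 20 chromosomes, with chromosomes 12 and 17 the exceptions and with 3.14 per Mb in both on chromosome 18. It was higher than outside genes on 20 of 20. Mappability of the stretches was not used here.

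The difference did not follow the 100 kb limit. Density fell from 4.62 per Mb in genes under 10 kb (78 summits) to 3.12 in genes of 50 to 75 kb, was 3.59 at 75 to 100 kb and 3.43 at 100 to 200 kb, and then fell to 2.77 at 200 to 500 kb and 1.27 in genes of 500 kb and over. Neighbouring classes up to 200 kb had overlapping intervals. Only the classes above 200 kb had intervals below that of all short genes. Leaving out sequence and summits within 1 kb of an annotated start left 3.05 per Mb in short genes (2.88 to 3.24), 2.41 in long genes (2.29 to 2.54) and 1.39 outside (1.33 to 1.45), and the order stayed. With host genes in the start table alone, the values were 2.94 (2.75 to 3.15) in short and 2.36 (2.23 to 2.51) in long genes. Without starts, genes under 10 kb had 3.59 per Mb (2.73 to 4.64).

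**Figure D2:**
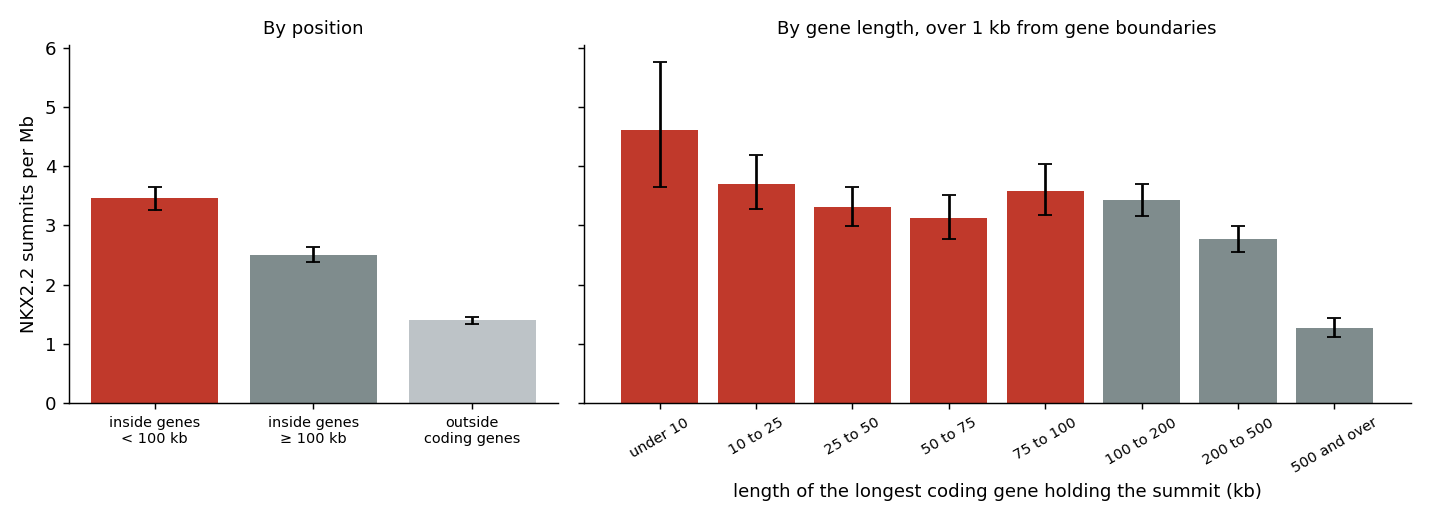
Summits per Mb of sequence over 1 kb from every gene boundary, by position (left) and by length in kb of the longest coding gene holding the summit (right); red bars are genes under 100 kb and error bars are exact 95% Poisson intervals. The 3 positions do not overlap (3.46, 2.50 and 1.40 per Mb), while the bars from 10 to 200 kb lie between 3.12 and 3.71.

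Longer genes offer more sequence, whose part was not tested, and the share of genes with such a summit rose with length. It was 1.51% of genes under 10 kb, 4.78% at 10 to 25 kb, 8.65% at 25 to 50 kb, 14.1% at 50 to 75 kb and 21.1% at 75 to 100 kb. Most host genes, 868, held 1 such summit. A further 149 held 2, 24 held 3, 6 held 4 and 3 held 5.

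Position along the gene was examined for the 1020 summits whose host gene has a strand in the promoter table. Of these, 575 were nearer the 5′ boundary, 56.4% (interval 53.3% to 59.4%), where 50.01% of the sequence lies. The excess sat close to the 5′ end, with 104 summits at 1 to 2 kb from it, or 8.89 per Mb (7.27 to 10.8), and 4.01 per Mb at 2 to 5 kb (3.36 to 4.75). From 5 kb on, density stayed between 2.85 and 3.41 per Mb. At 1 to 2 kb from the 3′ boundary it was 2.62 per Mb (1.78 to 3.73). With summits and sequence within 1 kb of annotated starts left out, 51.9% of 856 summits were nearer the 5′ boundary (48.5% to 55.2%), where 49.5% of the sequence lies, and the density at 1 to 2 kb was 5.48 per Mb (4.14 to 7.12). Exons, introns and UTRs were not distinguished, since the gene table used here gives gene spans only.

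**Figure D3:**
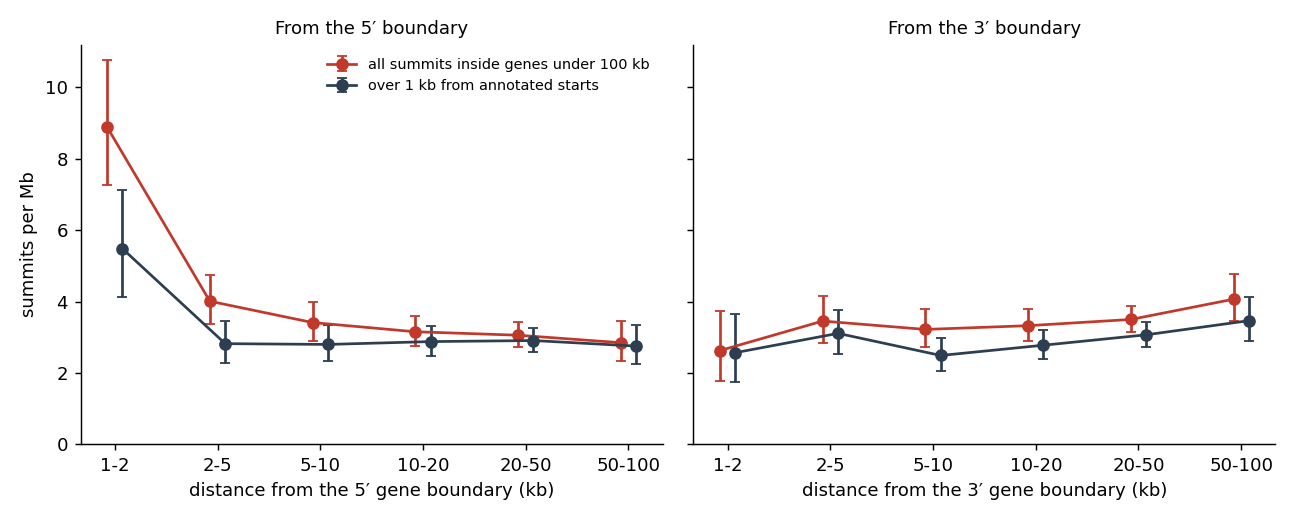
Summits per Mb against distance in kb from the 5′ (left) and 3′ (right) boundary of the host gene; red is all summits inside genes under 100 kb with a known strand, dark blue leaves out sequence within 1 kb of annotated starts, and error bars are exact 95% Poisson intervals. The first 5′ point stands at 8.89 per Mb, and at 5.48 without starts, while the other points lie between 2.49 and 4.07.

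Scores of summits inside short genes were close to those of the whole list. They ran from 2.10 to 1575 with a median of 13.9 and a middle 50% of 8.22 to 29.2, and the whole list had a median of 13.7. Summits inside long genes had a median of 14.1, those outside genes 14.9, and those within 1 kb of a coding gene boundary 12.5. Scores of 100 or more were found for 79, a share of 6.19% (interval 4.99% to 7.64%), against 5.08% of all placed summits. At coding gene boundaries it was 3.34% (2.66% to 4.19%), below the interval for short genes, and outside genes 6.69% (5.69% to 7.85%), within it. Inside long genes it was 4.84% (3.86% to 6.05%), an interval that overlaps that of short genes. Of the 100 highest-scoring summits, 20 lay inside short genes, as did 2 of the first 10.

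**Figure D4:**
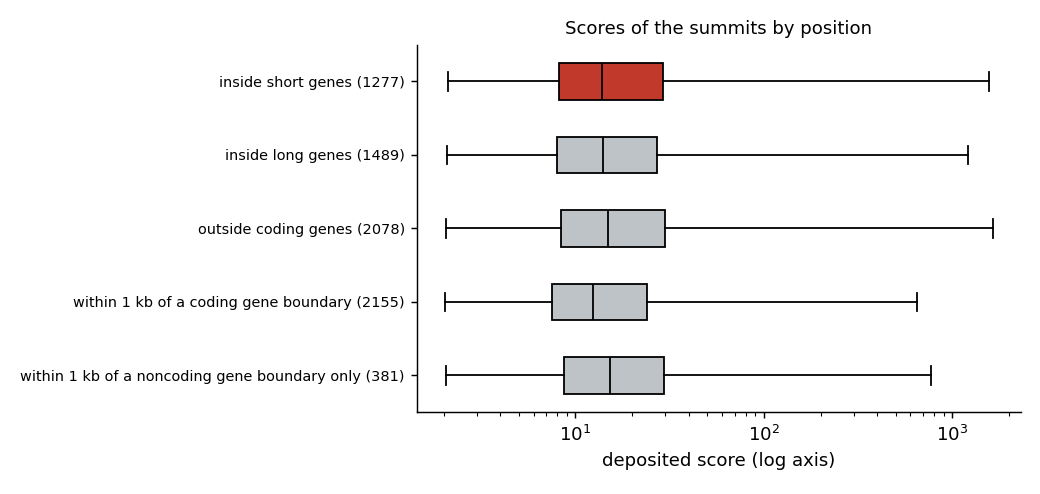
Deposited score on a log axis for summits in each position, with the number of summits in brackets; boxes span the middle 50%, lines inside mark the median and whiskers reach the lowest and highest score. The boxes overlap almost fully, with medians between 12.5 and 15.2.

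The strongest summit inside a short gene lay in Percc1, a gene that enteroendocrine cells of the gut need, at position 25175790 of chromosome 17 (GRCm38). Its score was 1575, rank 2 of all placed summits. Percc1 (gene ID 102643076) spans 25171154 to 25180818 on the minus strand, and the summit sits 5.03 kb from its 5′ and 4.64 kb from its 3′ boundary. The next was in Tmem171, which encodes a membrane protein, scoring 855.4 at position 98688153 of chromosome 13. It lay 1.92 kb from the nearest gene boundary. The third, with a score of 813.5 at 47618786 of chromosome 17, lay in the predicted gene Gm20517 and also in Med20, a gene for a subunit of Mediator. It was 1.83 kb from a boundary.

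The hosts of the next strongest summits had varied functions. In Rell1, a relative of a TNF receptor family gene, the summit lay deep in the gene, 32.1 kb from the nearest boundary, with a score of 684.0. Flvcr2, a choline transporter gene, had a score of 660.7 at 18.4 kb from its 5′ boundary and 5.485 kb from the nearest boundary of any gene. Nfic, which encodes a nuclear factor I protein, had 629.7 at position 81407728 of chromosome 10, at 11.5 kb from its 3′ boundary. The nearest boundary of any gene was 1.85 kb from this summit. Kcne2, a gene for an accessory subunit of potassium channels, had 552.6 at 92294380 of chromosome 16, inside a gene of only 5.75 kb.

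Gast, the gene for the hormone gastrin, had its summit scoring 364.7, at position 100335953 of chromosome 11. The gene spans 2.59 kb (100334407 to 100336997, plus strand), and the summit lay 1.55 kb from its 5′ and 1.04 kb from its 3′ boundary, only just past the 1 kb limit. The remaining 7 of the 15 strongest had scores from 348.2 to 465.0. They lay in Iffo1 (intermediate filament family), Ndrg1 (stress and differentiation response), Pold1 (catalytic subunit of DNA polymerase delta), Ahnak (a giant scaffold protein), Sumf1 (activation of sulfatases), Ascc1 (a transcription coactivator complex) and Paxip1 (a partner of histone methyltransferases). Of these 15 host genes, only Pold1 also had a summit within 1 kb of its own boundary. Tmem171, Iffo1 and Ndrg1 have no entry in the start table. The summits of the other 12 lay at least 1236 bp (Kcne2) from the nearest listed start.

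Gene groups were then read by role, each against the 6.5% of eligible short genes that held a summit. Lengths differ between groups, so the share expected from the length classes above is given as well. The gene lists were chosen with earlier results of these data known, so these shares are no independent evidence of enrichment. Corepressors and chromatin regulators had 7 of 22 eligible genes with such a summit, 31.8%, against 10.2% for genes of the same lengths. Tle3, a Groucho corepressor through which NKX2.2 can repress, had the highest score of the group, 28.5, at 5.63 kb from its 5′ boundary. Tle6 had 2 summits (14.7 and 10.7) and Tle1 had 1 (6.60). Hdac7, a histone deacetylase gene, had 2 (15.02 and 7.57) and Arid1a, a subunit of the BAF remodelling complex, had 2 (13.2 and 6.95). The summit of Tle3 and the higher summit of Tle6 and of Hdac7 stood above the median of all summits inside short genes, 13.9.

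Alpha cell genes held a summit in 5 of 16 eligible genes, 31.3%, against 8.06% for genes of the same lengths. Ttr, the gene for transthyretin, which alpha cells secrete, had a score of 37.6 at 3.33 kb from a gene boundary. Peg3, an imprinted zinc finger gene, had 23.5 at 1.96 kb from its 5′ boundary. The summits of Slc7a2 (8.54), a cationic amino acid transporter gene, Irx1 (5.69), an Iroquois homeobox gene, and Etv1 (4.89 and 4.26), an ETS factor gene, were all below the median. Etv1 and Irx1 each had 1 further summit within 1 kb of their own boundary. Beta cell genes held one in 2 of 13, 15.4%, against 5.31%. These were G6pc2, shown above, and Trpm5, a calcium-activated cation channel gene, with 19.3 at 12.8 kb from the 5′ boundary.

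Of the islet transcription factor genes, 4 of 21 eligible held a summit, 19.05%, against 6.94% for their lengths. Nkx2-2 itself had 1, scoring 51.4, at position 147190804 of chromosome 2, which lay 4.63 kb from the 5′ and 14.3 kb from the 3′ boundary. Pax6, which all islet endocrine cells need, had 3 within its 29.5 kb. They scored 13.7, 9.53 and 5.24, and the first 2 lay 5.73 and 6.63 kb from the 5′ boundary, while the third was at 17.0 kb. Isl1, a LIM homeodomain gene, had 1 with 9.61. Nkx2-2 and Isl1 each had 1 further summit within 1 kb of their own boundary. Among Krüppel-like and SP factor genes, 2 of 19 did, 10.5%, against 6.64%. Klf7 had 3 spread over its 92.9 kb (16.0, 11.2 and 5.26), and Klf13 had 2 (6.86 and 5.29). Among the other list genes named here, Tle1, Tle3, Arid1a, Klf13, Kcnh2, Gng7 and Smad7 also had 1 each within 1 kb of their own boundary.

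Hormone processing, granule and exocytosis genes held a summit in 5 of 22 eligible genes, 22.7%, against 7.67%, with a median of 39.3 for the highest summit of each gene. Syt13, a synaptotagmin gene of islets, had 3 summits, at 39.9, 26.3 and 21.9, all above the median of 13.9. Scg3, a secretogranin gene for granule formation, had 1 with 39.3 at 17.0 kb from its 5′ boundary. Rab3a (12.7) and Snap25 (10.2), a vesicle GTPase and a SNARE gene, had 1 each below the median.

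Ion channel genes held a summit in 4 of 14, 28.6%, against 9.47%. The strongest of all list genes was in Abcc8, which encodes the sulfonylurea receptor of the ATP-sensitive potassium channel. Its 4 summits scored 270.5, 31.8, 5.67 and 5.21, and the highest was at position 46123272 of chromosome 7, 17.2 kb from the nearest gene boundary. Kcnh2, a potassium channel gene, had 2 (22.3 and 13.2). Cacna1g, a T-type calcium channel gene, had 1 with 16.5, and Hcn2, a pacemaker channel gene, 1 with 3.82. Of the genes of cyclic AMP and G-protein signalling, 4 of 22 held one, 18.2%, against 7.03%. Sstr3, a receptor for somatostatin, had a score of 101.8 at position 78541815 of chromosome 15, 409 bp from an annotated start. The G-protein subunit genes Gnb1 (25.6), Gng7 (24.5 and 4.73) and Gnas (6.32) held the others.

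Genes of glucose and amino acid handling held a summit in 5 of 23, 21.7%, against 8.18%. Slc3a2, the shared heavy chain of amino acid exchangers, had 24.6, and its partner Slc7a5 had 2 with 5.43 and 4.11. The glucose transporter gene Slc2a3 had 16.9, Ldha 12.8 and Slc38a4 3.25. Signalling genes of the Notch, Wnt, TGF-beta and Hippo pathways held one in 2 of 28, 7.14%, against 7.99%, with Smad7 at 7.46 and Wnt4 at 6.45. No delta, PP or epsilon cell gene (0 of 7) and no liver or muscle gene (0 of 13) held one, where 3.001% and 4.67% of genes of the same lengths did, which comes to fewer than 1 gene in each. Of the genes of other pancreatic cells, 2 of 12 did, 16.7%, against 5.17%, a ratio like that of several islet groups. They were Pecam1 and Col1a2, with scores of 4.11 and 4.09. Most of these groups hold fewer than 25 eligible genes, their Wilson intervals are wide (14.2% to 55.6% for alpha cell genes), and nothing is read as particular to a group.

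**Figure D5:**
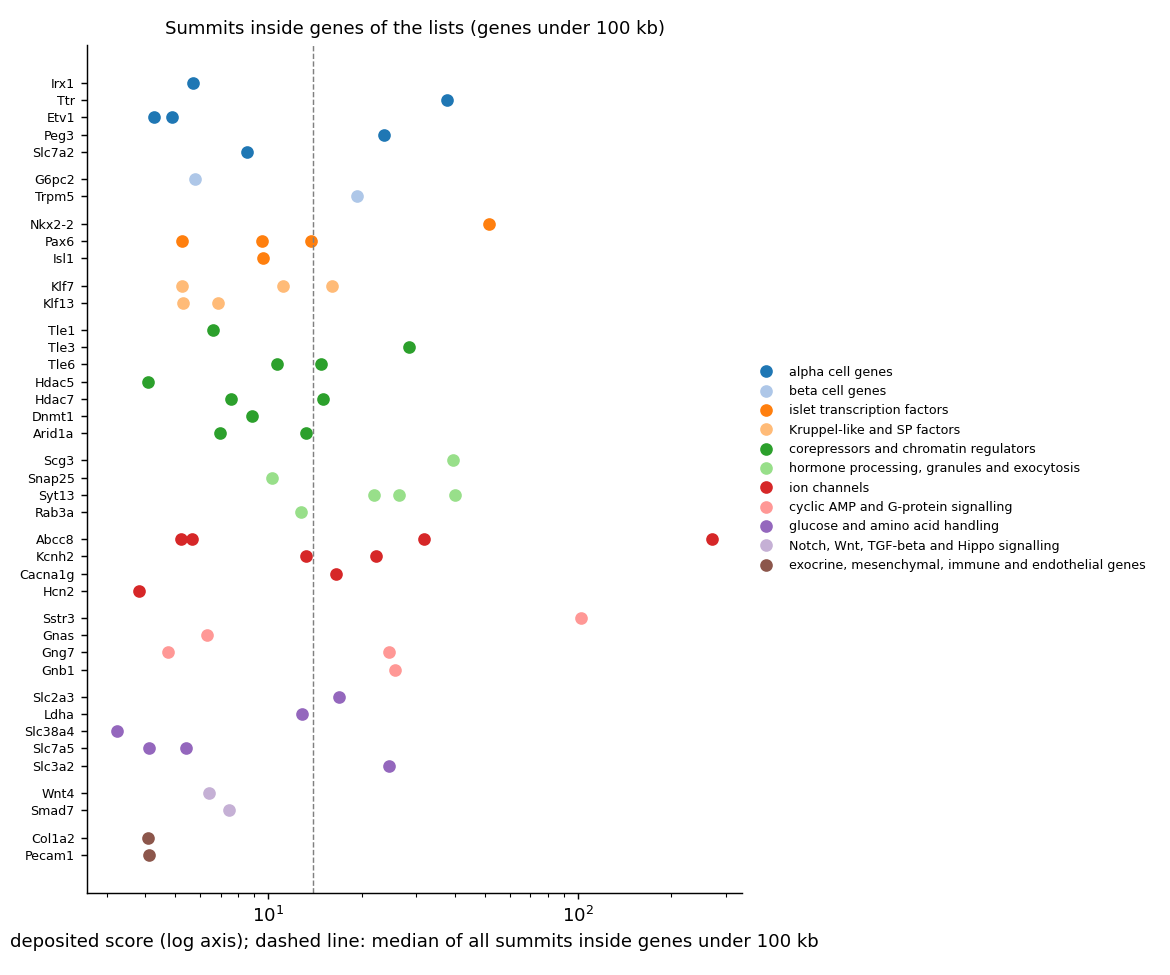
Deposited score on a log axis of summits inside listed genes under 100 kb that are reported here; each row is a gene, each point a summit, colours are gene groups and the dashed line is the median of all summits inside short genes, 13.9. Abcc8 and Sstr3 hold the points above 100 (270.5 and 101.8), and Syt13 has 3 points right of the line.

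Only 3 genes held 5 summits, and 6 held 4, of which Abcc8 and Ago2 are described because their highest scores are the largest of the 6. Il1r1, the receptor gene of interleukin-1, had 5 within 93.7 kb, with scores of 35.7, 18.8, 10.05, 8.52 and 4.11. Itpkb, an inositol phosphate kinase gene, had 5 within 94.4 kb, from 4.37 to 25.03. Ppard, a nuclear receptor gene for fatty acids, had 5 within 68.7 kb, from 2.48 to 24.7. Ago2, the slicer gene of RNA interference, had 4 within 83.3 kb, with 100.7 the highest and 17.7, 9.12 and 4.22 the others. In each of these 5 genes the highest score was more than 4 times the lowest, with 1 summit well above the others in Abcc8 and Ago2. In the other 4 genes with 4 summits that ratio ran from 1.68 to 19.6.

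The 182 genes with several summits were longer than those with 1, with a median of 56.9 kb against 35.8 kb, and their summits had a like median score of 14.05 against 13.8. Adjacent summits in a gene lay a median of 9.82 kb apart over 227 pairs, from 455 bp to 78.8 kb. Another summit of any kind lay within 10 kb of 338 summits, 26.5% (interval 24.1% to 29.0%), against 21.1% of all placed summits. Summits outside coding genes had a neighbour that close in 23.2% of cases (21.4% to 25.1%) and those at noncoding gene boundaries alone in 25.5% (21.3% to 30.1%), and both intervals overlap that of short genes. The share was 19.6% inside long genes (17.7% to 21.7%) and 16.2% at coding gene boundaries (14.7% to 17.9%). With a score minimum of 10, applied to the neighbours too, the share inside short genes was 18.5%. The other positions were not counted at that minimum.

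Host genes also had summits at their own ends more often than other short genes. Of the 1050 host genes, 187 had a summit within 1 kb of their own boundary, 17.8% (interval 15.6% to 20.2%), against 13.0% (12.5% to 13.5%) of the 15112 eligible genes without an internal summit and 13.3% of all. In the length classes the pairs of values were 20.3% and 12.0% under 10 kb, 19.9% and 14.1% at 10 to 25 kb, 13.7% and 13.1% at 25 to 50 kb, 19.2% and 11.8% at 50 to 75 kb, and 19.4% and 13.8% at 75 to 100 kb. The host genes had the higher share in each class, and the intervals were apart at 10 to 25 kb and at 50 to 75 kb and overlapped in the other 3 classes.

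By chromosome, autosomes held 3.44 ± 1.05 of these summits per Mb of short-gene sequence (SD, n = 19 chromosomes). Chromosome 6 had the most, 4.84 per Mb (3.92 to 5.92). Chromosome 14 had 1.08 (16 summits, 0.617 to 1.75) and the X chromosome 0.627 (9 summits, 0.287 to 1.19). The interval of X lies below that of every autosome except 14. The part of a chromosome's summits that lay inside short genes was 21.1% on chromosome 14 and 14.5% on X, against 11.7% to 21.5% on the others. Among gene families of 10 to 100 kb, 30 of 275 solute carrier (Slc) genes held a summit, 10.9% (7.75% to 15.1%), against 8.66% of all genes of that length. Zinc finger (Zfp) genes did in 20 of 310, 6.45% (4.21% to 9.75%), and olfactory receptor genes in 0 of 22 (0% to 14.9%). The intervals of the Slc, Zfp and olfactory receptor families all include the share of all genes.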

How the data were processed

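DNA bound by NKX2.2 and input DNA from alphaTC6 cells were sequenced, with 2 samples each, grouped by the sample titles. The submitters' processing notes name FastQC, Bowtie2, MACS2 and the build mm10, without versions. Whether replicates were pooled for peak calling is not given in the sources used here. The deposited list gives each summit's position and a score, taken as the −log10 q-value that MACS2 writes; its lowest value lies just above that of a q of 0.01.

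Positions were counted from 1 and set against RefSeq genes and promoter windows of GRCm38.p6 (mm10 is another name of GRCm38). Of overlapping windows, the one whose start lay nearest a summit was kept. No genome sequence was used, so motifs were searched only in promoter windows, not around every summit as first planned. Sequence over 1 kb from all boundaries served as the denominator of densities. Shares have 95% Wilson and densities 95% exact Poisson intervals.

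The sites and gene lists were chosen with earlier results of these data known. Genes named are hosts of the 15 strongest summits, the 5 genes with most summits, at most 6 genes per list and the genes next to the length limit. Printed windows are the 4 with the highest scores, those of list genes, and those with an RFX-like site near the summit among the 5 highest-scoring, chosen after values were seen. Some genes that these rules name, 1 of them with an RFX-like window, are counted in their groups but not reported here. All list genes were matched by symbol except Tmem27. Classing and motif search were tested on simulated data. Tables were handled with pandas 2.3.3 and numpy 2.4.6 under Python 3.11.15, intervals came from scipy 1.17.1 and plots from matplotlib 3.10.9.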

Additional observations from a re-analysis of the deposited data

How the results depend on the processing

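No paired analysis was possible because peaks were deposited as 1 list without values for single libraries, so leaving out a replicate could not be done either. Alternatives that need a genome or exons (sequence windows around each summit, introns) were not run. Of 60 values under alternatives, 42 stayed within 1.5 times (counts) or within the 95% interval of the main value (others), and 18 did not.

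The number of summits inside short genes was 1277, and it was 831 with a score minimum of 10, 740 over 5 kb from boundaries and 728 in genes under 50 kb; host genes were then 734, 617 and 635. The median score was 15.3 with a minimum of 5 and 22.2 with a minimum of 10, where the share with a score of at least 100 was 9.51%, the share with a neighbour within 10 kb 18.5% and the density 2.25 per Mb. Fewer summits kept, with the same number at 100 or more, gives these shifts by construction. A neighbour lay within 5 kb for 17.0% and within 50 kb for 65.1%. A start lay within 100 bp of 6.81%, 500 bp of 11.2% and 1 kb of 13.2%, and within 250 bp of 11.5% where the host gene is in the start table. Away from starts the share nearer the 5′ boundary was 51.9% and the density 3.05 per Mb. The order of densities (short genes, long genes, outside) was the same at score minimums of 5 and 10, with 2.25, 1.63 and 0.948 per Mb at 10. The settings for starts, gene ends and densities were chosen after seeing the data. Depth is unknown, so a gene without a summit shows only that no peak was called.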
